A study of Xenopus tropicalis with 26 samples.

Results

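Gastrula embryos of the western clawed frog, Xenopus tropicalis, were compared with pre-gastrula embryos by RNA-seq, over every feature of the deposited count table. The comparison took 6 of the 26 libraries of the series: the 2 stage 11 libraries, 1 from each of 2 families, against the 4 libraries of stages 6 and 8 of the same families, taken as one pre-gastrula group with family as a block. Each library was made from a pool of whole embryos, but the labels do not say how many a pool held. They name no treatment, genotype or strain for any group. The 4 pre-gastrula libraries are 2 stages of 2 families, so they are not 4 repeats of one condition, and the 2 gastrula libraries are the only repeats at their stage. The same 6 embryo pools were also sequenced with whole transcriptome target sequencing (WTTS), which keeps the polyadenylated ends of transcripts, and these libraries served as a second readout.

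In Xenopus, a cleaving embryo lives on RNA that the mother laid down in the egg, and its own genome is nearly silent. Transcription of the embryo's genome starts broadly around the midblastula transition, and in the hours that follow much of the maternal RNA is degraded while zygotic transcripts build up. Stages 6 and 8 are cleavage and blastula embryos in the usual staging and stage 11 is a gastrula, so the comparison spans this handover. The features carry identifiers and positions and no gene names, so the stages were not checked against marker genes and no feature is given a function here. Positions are those of the deposited table, on scaffolds of a genome build that the labels do not name.

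The gastrula libraries held 110931253 and 119966621 counts, against 110710673 to 131001449 in the pre-gastrula libraries. At least 1 read fell on 22996 and 23400 features at stage 11, and on 20599 to 21150 features at stages 6 and 8. Of the 27836 features in the table, 19413 had enough counts to be tested and 8423 did not, 3527 of these with no read in any of the 6 libraries. Levels are given as normalised CPM, counts scaled to the size of the library after TMM correction, which are shares of the RNA sequenced and not amounts per embryo. WTTS and adult levels are plain CPM without that correction. The WTTS log2 changes come from a fit with TMM, so they can differ from the ratio of the WTTS levels beside them. In whole embryos, fewer cells of a type and less RNA per cell cannot be told apart. A feature was called where the Benjamini-Hochberg adjusted p of edgeR's quasi-likelihood test was below 0.05, and adjusted p-values below come from that test unless they are given as a range over alternatives, which include other tests.

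More than 2 in 3 of the tested features changed between the pre-gastrula stages and gastrula. At stage 11, 7039 features were higher, or 36.3% of those tested, and 6224 were lower, or 32.1%. Together the calls came to 68.3%, so a call by itself says little about a single feature. Both stage 11 libraries lay above all 4 pre-gastrula libraries for 6843 of the features called higher, and below all of them for 5992 of those called lower. Over all tested features, called or not, 39.0% lay above in this way and 34.3% below, so such a separation was common in itself. Within each family, the stage 11 library lay above both earlier ones for 7007 of the 7039 and below both for 6207 of the 6224. The split between directions depended on scaling. With TMM 53.1% of the calls were higher, and with upper-quartile scaling 71.3%, with 9865 features higher and 3967 lower. That scaling put the median log2 change of all tested features at 0.66, against 0.08 with TMM, 0.10 with DESeq2 size factors and 0.23 with library totals alone.

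With TMM, rises were larger than falls over all calls, but not among features that were abundant before. Features called higher had a median log2 change of 2.53, a value that stayed at 2.53 with the 155 features without a pre-gastrula read set at their lower bound. Features called lower had a median of -1.41. The 2 sets started from unlike levels, with a median before of 0.205 CPM in features called higher and 48.2 CPM in those called lower. At 10 to 100 CPM before, the median log2 change was 1.04 for rises and -1.40 for falls, and above 100 CPM it was 0.79 and -1.42. This order by level depends on scaling. Upper-quartile scaling moved the median of all tested features from 0.08 to 0.66, and the medians by level are given with TMM alone. A change of at least 3 on the log2 scale was reached by 2957 rising features, or 42.0% of them, and by 570 falling ones, or 9.16%. At 6 or more the numbers were 1024 and 9. No feature fell by 8 or more, while 385 rose by that much. Tested against a log2 change of 1, 4869 features were higher (25.1% of those tested) and 3215 lower (16.6%).

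A set of classes describes what was switched on and what was cleared. Switched-on features were called higher, lay below 0.1 CPM in each pre-gastrula library and reached at least 1 CPM in both gastrula libraries, and there were 353. Boosted features were called higher from a pre-gastrula mean of at least 1 CPM, and there were 2143. Cleared features were called lower, had at least 1 CPM in each pre-gastrula library and fell by at least 3 on the log2 scale, and there were 537, or 262 with upper-quartile scaling. The 5350 reduced features were the others called lower from a mean of at least 1 CPM. The remaining 4543 higher and 337 lower features started from a low level and passed none of these limits. At the limits, the weakest cleared feature had a log2 change of -3.001 and the next one outside it -2.999, and the highest pre-gastrula level of a switched-on feature was 0.0993 CPM, against 0.102 CPM for the first one left out. The classes are cut from the tested contrast and are a description of it.

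**Figure D1:**
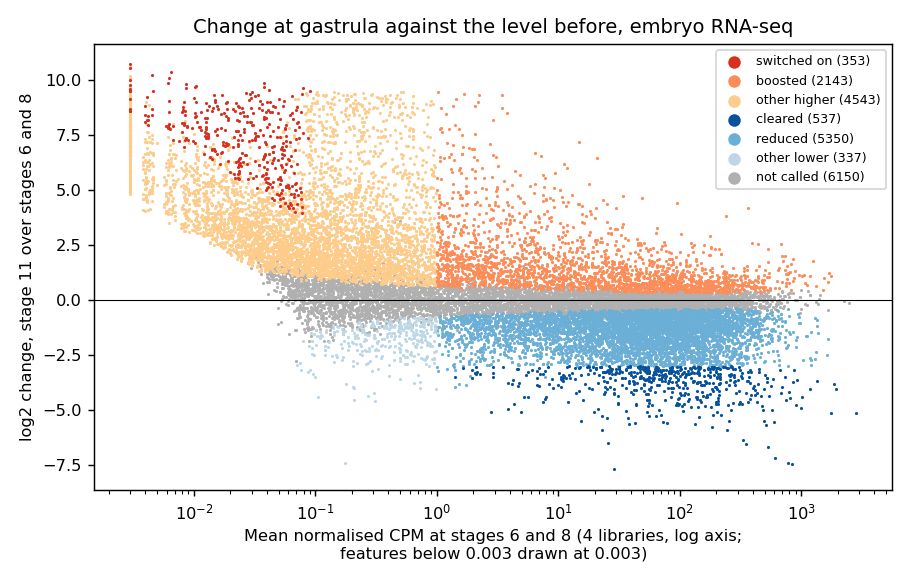
Each point is a tested feature, with its mean normalised CPM at stages 6 and 8 on a log axis and its log2 change at stage 11 over stages 6 and 8 on the vertical axis, coloured by class. Rises reach 10.7 on the log2 scale and the largest start from low levels, falls reach -7.68, and the upper edge of the points is nearly flat between 0.1 and about 4 CPM.

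Counted in reads, most of the shift lay in features that were already present before gastrula. Boosted features took 40.6% and 42.0% of all counts in the gastrula libraries, against 14.3% to 15.0% in the pre-gastrula ones. Reduced features took 22.9% and 21.5% at gastrula, against 47.7% to 48.9% before. Cleared features took 0.657% and 0.604% at gastrula, against 7.43% to 8.74% before. The groups did not overlap in any of these shares, but the classes were cut by the calls in these same libraries, so this separation comes with their choice. Switched-on features held 0.224% and 0.305% of the gastrula counts, against 0.00101% to 0.00127% before. Features that were not called took 32.2% and 31.4% at gastrula and 28.2% to 29.2% before. The 10 most abundant boosted features alone took 4.33% and 4.01% at gastrula, against 0.985% to 1.10% before.

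**Figure D2:**
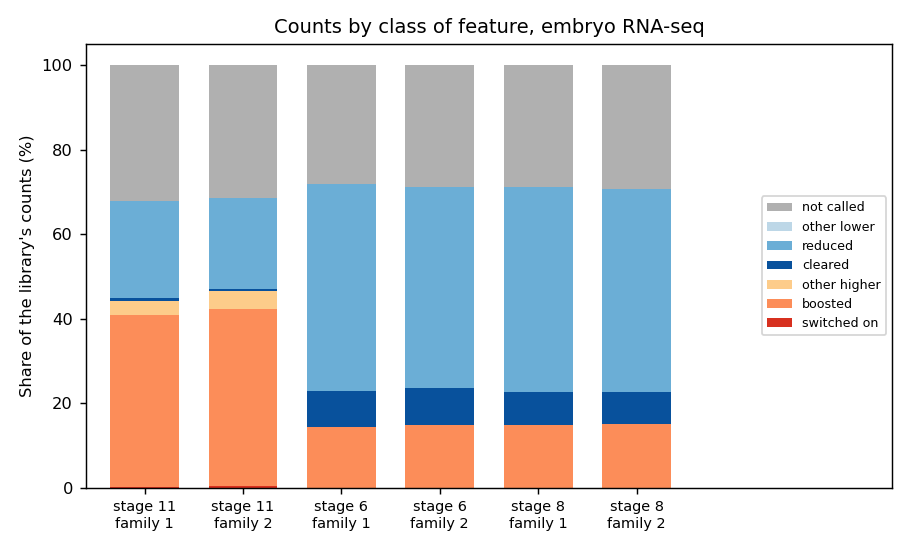
Bars show the share of each library's counts, in percent, taken by each class of feature, with the 2 gastrula libraries on the left and the 4 pre-gastrula libraries on the right. Boosted features take 40.6% and 42.0% at stage 11, against at most 15.0% before, while reduced and cleared features shrink, and the switched-on class is barely visible.

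The 8 most abundant switched-on features averaged 32.0 to 69.5 CPM at gastrula and less than 0.1 CPM before. XLOC_002669, a feature of 660 bp on scaffold_1 from 102365019 to 102365678, minus strand, had 88.4 and 50.6 CPM in the gastrula libraries of families 1 and 2, against 0.0939, 0.0893, 0.0991 and 0.0827 CPM in the pre-gastrula libraries. Its mean was 69.5 ± 26.7 CPM at gastrula (SD, n = 2) and 0.0913 ± 0.00697 CPM before (SD, n = 4), which made the log2 change 9.53 (SE 0.23) at an adjusted p of 1.03e-07. The pre-gastrula libraries hardly differed among themselves, and the gastrula libraries stood far above them. XLOC_026188, on scaffold_9 from 69916395 to 69922765, plus strand, had 55.8 and 73.9 CPM at gastrula, against 0.0683, 0.0893, 0.0762 and 0.0827 CPM before, at a log2 change of 9.65 (SE 0.20, adjusted p = 8.75e-08). XLOC_027653, on scaffold_9 from 96833396 to 96834422, minus strand, had 52.0 and 54.4 CPM at gastrula, against 0.0496 to 0.0991 CPM before, at a log2 change of 9.40 (SE 0.25, adjusted p = 1.32e-07). In both of these features each family stood far above its earlier libraries.

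XLOC_020912, on scaffold_7 from 94517706 to 94521460, plus strand, had 41.1 and 40.0 CPM at gastrula, against 0.0534 to 0.0744 CPM before. XLOC_022972, on scaffold_8 from 19646419 to 19649851, plus strand, had 34.0 and 41.1 CPM at gastrula, against 0.0298 to 0.0496 CPM before. Its log2 change of 9.89 (SE 0.25) was the largest of the 8 features with the highest gastrula level in the class. XLOC_000117, on scaffold_1 from 14387997 to 14389577, plus strand, had 29.9 and 34.0 CPM at gastrula, against 0.0229 to 0.0596 CPM before. XLOC_024591, on scaffold_8 from 64927835 to 64934923, minus strand, differed most between the families at gastrula, with 8.95 CPM in family 1 and 56.7 CPM in family 2, against 0.0413 to 0.0695 CPM before. Its log2 change of 8.86 (SE 0.52, adjusted p = 5.16e-06) was 9.98 without family 1 and 7.38 without family 2 of stage 11. XLOC_020146, on scaffold_7 from 5700299 to 5716788, plus strand, had 23.3 and 42.2 CPM at gastrula, against 0.0458 to 0.0939 CPM before. The adjusted p of these 5 features lay between 1.09e-07 and 5.16e-06.

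No switched-on feature passed 69.5 CPM at gastrula, and the median of the class was 3.59 CPM at gastrula and 0.0288 CPM before. Its log2 changes had a median of 7.47 and lay between 3.95 and 10.7. Only 2 of the 353 had no read at all in the 4 pre-gastrula libraries together, and with a floor of 3 counts over the group the larger of their lower bounds was at least 284-fold higher at gastrula. A further 34 had 1 to 3 reads there. XLOC_008686, on scaffold_2265 from 129 to 7587, minus strand, rose most among called features between 3 and 10 kb with at least 10 CPM at gastrula, with 2852 counts at gastrula against 3 before. The ratio of CPM was 1806, with an exact 95% counting interval from 617 to 8761, and the families had 2.52 and 19.7 CPM at gastrula. In WTTS this feature had no read at stages 11, 15 and 28. The only embryo library with a read there was stage 8 of family 1, at 0.340 CPM. Why the methods differed was not tested.

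Features that rose from 1 CPM or more reached far higher levels by a nearly equal factor. XLOC_019060, on scaffold_6 from 59752990 to 59772257, minus strand, had 833 and 602 CPM at gastrula, against 1.10, 0.973, 0.831 and 1.16 CPM before, a log2 change of 9.45 (SE 0.23, adjusted p = 1.09e-07). XLOC_019113, on scaffold_6 from 69797210 to 69805439, minus strand, had 1182 and 1015 CPM at gastrula, against 1.72, 1.67, 1.39 and 1.88 CPM before, at a log2 change of 9.37 (SE 0.20, adjusted p = 8.75e-08). XLOC_009696, on scaffold_3 from 21305406 to 21321610, plus strand, had 1465 and 1421 CPM at gastrula, against 2.56, 1.96, 2.03 and 2.29 CPM before, with a log2 change of 9.35 (SE 0.19). Each of the 3 rose in both families by about the same amount. XLOC_012550, on scaffold_4 from 20093874 to 20102641, plus strand, had 2264 and 2097 CPM at gastrula, against 4.04, 3.07, 3.47 and 3.10 CPM before, at a log2 change of 9.32 (SE 0.17, adjusted p = 8.75e-08). The typical boosted feature changed far less, as the median log2 change of the class was 1.20, with a median level of 54.0 CPM at gastrula and 14.9 CPM before.

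**Figure D3:**
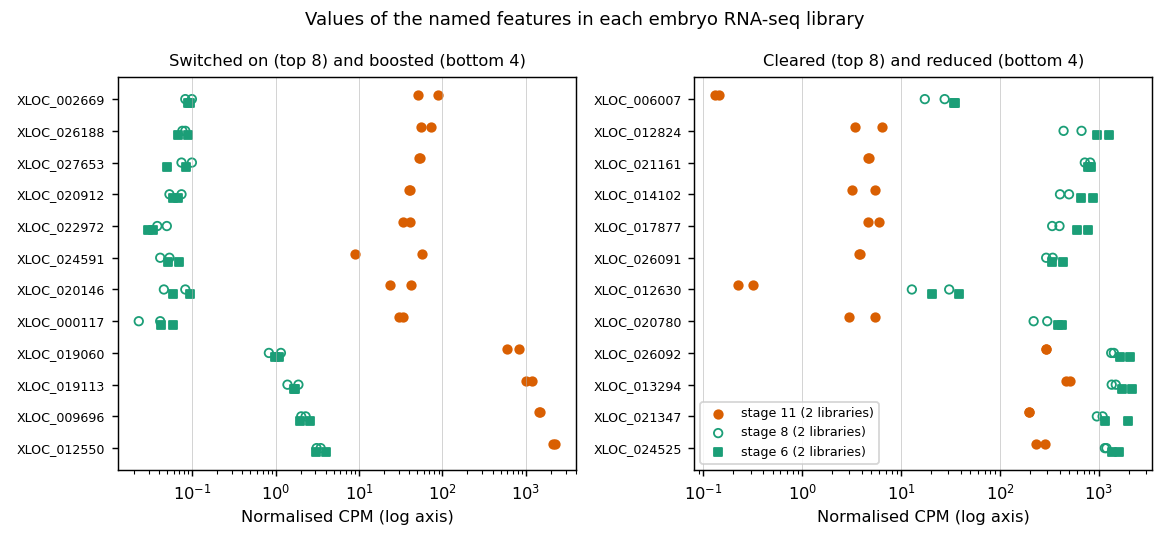
Points give normalised CPM on a log axis in each of the 6 embryo RNA-seq libraries, for the named switched-on and boosted features on the left and the named cleared and reduced features on the right. The stage 11 points (filled circles) lie apart from those of stages 6 and 8 in all 24 features, above them on the left and below them on the right.

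In the strongest risers a low level was present before gastrula in every library. Among the 896 features called higher with at least 100 CPM at gastrula, the 20 with the largest change had pre-gastrula means between 0.139% and 0.161% of their gastrula means, while the gastrula means themselves ran from 101 to 2181 CPM. Ranking by change is ranking by this share, so the 20 lie in a narrow band by their choice. The lowest share was 0.140% among 571 features with 100 to 300 CPM at gastrula, 0.139% among 261 with 300 to 1000 CPM and 0.151% among 64 with 1000 CPM or more. Among 688 features with 30 to 100 CPM it was 0.101%, and among 618 with 10 to 30 CPM 0.0582%. In single pre-gastrula libraries, among features with 1000 CPM or more, the lowest shares were 0.157% and 0.136% in the stage 6 libraries and 0.126% and 0.141% in the stage 8 libraries. At such shares a feature with 100 CPM or more at gastrula lies above the limit of 0.1 CPM before, and none was in the switched-on class. In the WTTS libraries, sequenced apart from these but from the same pools, the same 20 features had pre-gastrula means from 0% to 4.58% of the gastrula mean, with a median of 0.638%. XLOC_017062 had 116 WTTS counts at gastrula and none before, which allows up to 0.206 CPM over the 4 libraries together. XLOC_012779 had 367 at gastrula and 32 before. Whether the low pre-gastrula reads of the RNA-seq libraries came from the pre-gastrula embryos, or include reads assigned from the gastrula libraries, was not tested. If they include such reads, the levels before are upper limits and the log2 changes near 9 or above understate the rise.

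**Figure D4:**
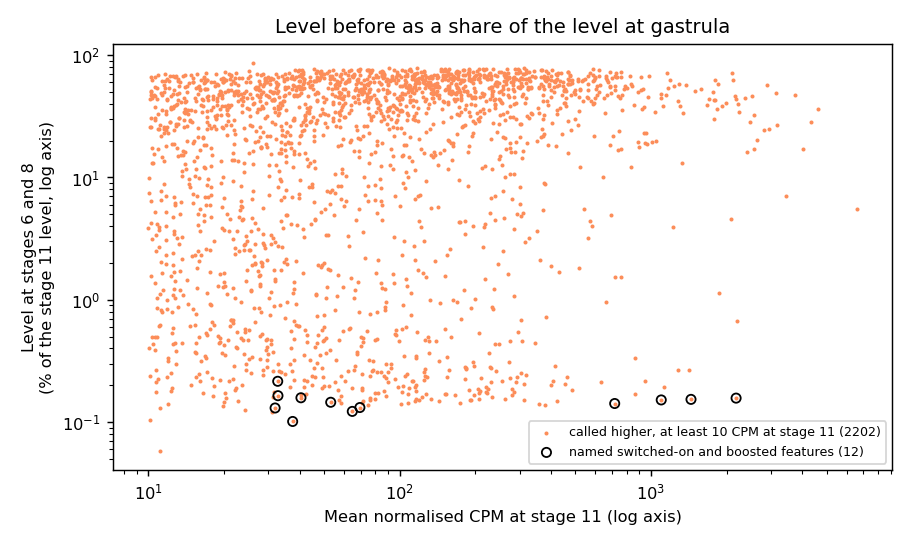
Each point is a feature called higher with at least 10 CPM at stage 11, with its mean normalised CPM at stage 11 and its level at stages 6 and 8 in percent of that, both on log axes, and open circles mark the named switched-on and boosted features. The lowest shares are 0.140%, 0.139% and 0.151% among features with 100 to 300 CPM, 300 to 1000 CPM and 1000 CPM or more.

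With a relative limit, chosen after the data were seen, of less than 0.5% of the gastrula level in each pre-gastrula library, 257 features came out as switched on, 99 of them in the class of 353. Of these 257, 89 had at least 100 CPM at gastrula, and together they held 3.44% and 4.02% of the gastrula counts. The class of 353 held 0.224% and 0.305%.

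The most abundant of all rising features had been well present before. XLOC_007241, on scaffold_2 from 14048738 to 14055226, minus strand, and XLOC_005482 were chosen after their values were seen, as the 2 with the highest mean at gastrula. XLOC_007241 had 6286 and 6918 CPM at gastrula, against 320.2, 335, 399 and 401 CPM before, a log2 change of 4.18 (SE 0.17, adjusted p = 7.85e-07). In WTTS it averaged 5582 CPM at gastrula and 622 CPM before. XLOC_005482, on scaffold_169 from 134765 to 256436, minus strand, had 7269 CPM in family 1 and 1943 CPM in family 2 at gastrula, against 1276, 1947, 2326 and 1185 CPM before. Its log2 change of 1.25 (SE 0.42, adjusted p = 0.0288) rested on family 1 of stage 11, without which it was 0.29 (adjusted p = 0.571), and the adjusted p ran from 0.00461 to 0.571 over 17 alternatives. WTTS had the families in the other order, with 6612 CPM in family 1 and 135737 CPM in family 2 at stage 11.

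The cleared features had a median of 5.92 CPM at gastrula, with a highest mean of 134.9 CPM, against a median of 77.3 CPM before. XLOC_006007, on scaffold_2 from 18258505 to 18269031, plus strand, had 0.145 and 0.131 CPM at gastrula, against 35.1, 34.6, 27.5 and 17.4 CPM before, so that 0.481% of its level was left. Its log2 change was -7.68 (SE 0.45, adjusted p = 5.19e-06), the largest fall of the class. XLOC_012824, on scaffold_4 from 58465201 to 58468360, plus strand, had 6.39 and 3.45 CPM at gastrula, against 963 and 1271 CPM at stage 6 and 668 and 440 CPM at stage 8. The log2 change was -7.45 (SE 0.62, adjusted p = 2.82e-05). Another, XLOC_021161, on scaffold_7 from 117307224 to 117313431, plus strand, had 4.77 and 4.60 CPM at gastrula, against 772, 827, 721 and 817 CPM before, and its log2 change was -7.38 (SE 0.21, adjusted p = 1.59e-07). Its 4 pre-gastrula libraries were close together, whereas those of XLOC_012824 were spread wide.

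XLOC_014102, on scaffold_4 from 58484546 to 58487575, minus strand, lies 16185 bp beyond XLOC_012824 on the other strand, with no feature between them. It had 5.47 and 3.18 CPM at gastrula, against 657 and 863 CPM at stage 6 and 499 and 404 CPM at stage 8, at a log2 change of -7.15 (SE 0.49, adjusted p = 1.08e-05). XLOC_017877, on scaffold_6 from 21763795 to 21777936, plus strand, had 4.62 and 6.00 CPM at gastrula, against 606 and 776 CPM at stage 6 and 399.6 and 337 CPM at stage 8. In both features, and in XLOC_012824, the stage 8 libraries lay below the stage 6 libraries. XLOC_026091, on scaffold_9 from 57754729 to 57763759, plus strand, had 3.86 and 3.76 CPM at gastrula, against 293 to 434 CPM before. XLOC_012630, on scaffold_4 from 29178518 to 29184789, plus strand, had 0.315 and 0.223 CPM at gastrula, against 12.8 to 38.4 CPM before, with family 2 the lower at each stage. XLOC_020780, on scaffold_7 from 75755662 to 75760158, plus strand, had 5.46 and 2.95 CPM at gastrula, against 219 to 420 CPM before. None of the 8 features overlaps a feature on the other strand in the table, and whether any of them shares sequence with a copy elsewhere was not analysed here.

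Clearing was rarely complete. Of the 537 cleared features, 59 were below 1 CPM in both gastrula libraries and none was without reads there. A median of 8.50% of the pre-gastrula level was left. The share of falling features that fell this far grew with the level before, from 4.603% of 956 falling features at 1 to 10 CPM to 9.20% of 2000 at 30 to 100 CPM, 17.8% of 354 at 300 to 1000 CPM and 31.8% of 22 at 1000 CPM or more. The median share left was 38.5% in the lowest of these ranges, 37.9% at 30 to 100 CPM, 36.2% at 300 to 1000 CPM and 15.7% in the highest.

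The 4 reduced features with the largest loss of CPM were still abundant at gastrula. XLOC_026092, on scaffold_9 from 57770190 to 57776662, plus strand, had 295 and 289 CPM at gastrula, against 1652 and 2059 CPM at stage 6 and 1333 and 1418 CPM at stage 8 (log2 change -2.46, SE 0.22, adjusted p = 4.49e-05). It lies close beyond the cleared feature XLOC_026091 on the same strand. XLOC_013294, on scaffold_4 from 103607813 to 103614008, plus strand, had 507 and 465 CPM at gastrula, against 1349 to 2145 CPM before. XLOC_021347, on scaffold_7 from 7160613 to 7179751, minus strand, had 198.4 and 198.3 CPM at gastrula, against 954 to 1986 CPM before. XLOC_024525, on scaffold_8 from 57601996 to 57613869, minus strand, had 284 and 229 CPM at gastrula, against 1147 to 1614 CPM before. The groups did not overlap in any of the 4, which were chosen for their loss. In WTTS, XLOC_013294 and XLOC_024525 were called lower (log2 change -1.10 and -0.84, adjusted p = 0.0229 and 0.0385). XLOC_026092 and XLOC_021347 were not called there (log2 change -0.32 and -0.79, adjusted p = 0.479 and 0.0574).

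Some of the most abundant features stayed within the spread between the RNA-seq libraries. XLOC_015609, on scaffold_5 from 25747421 to 25754256, plus strand, had 2323 and 2257 CPM at gastrula, against 2568, 3103, 2090 and 2158 CPM before, at a log2 change of -0.11 (SE 0.20, adjusted p = 0.635). XLOC_013645, on scaffold_4 from 6177569 to 6190563, minus strand, had 2357 and 2083 CPM at gastrula, against 1929 to 2888 CPM before, with a log2 change of -0.02 (SE 0.20). XLOC_002061, on scaffold_1 from 35888188 to 35900164, minus strand, had 1569 and 1407 CPM at gastrula, against 1220 to 1711 CPM before, with a log2 change of 0.09 (SE 0.19). In all 3 the gastrula values lay inside the range of the earlier ones. The third was called higher with upper-quartile scaling, at a log2 change of 0.66 (adjusted p = 0.0186), and over its 17 alternatives the adjusted p ran up to 0.999998. In WTTS, XLOC_015609 was called higher by the fit with TMM (log2 change 1.01, SE 0.24, adjusted p = 0.00497). Its plain WTTS levels, 589 CPM at gastrula and 425 CPM before, differed by less than that change. XLOC_013645 and XLOC_002061 were not called there (adjusted p = 0.145 and 0.451).

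The direction of change went with the level before. Of 3128 tested features with a pre-gastrula mean under 0.1 CPM, 86.2% were higher and 0.48% lower at gastrula. A feature this low passes the filter on low counts mostly through the gastrula libraries, so these shares are set in part by the filter. Between 0.1 and 1 CPM 53.9% of 4084 features were higher and 7.88% lower. From 1 to 10 CPM the directions were nearly even, at 27.9% higher and 28.9% lower of 3307. From 10 to 100 CPM 14.1% were higher and 53.5% lower of 5794, and above 100 CPM 12.97% were higher and 59.1% lower of 3100. The level before is also the lower term of the change, so part of this order comes with the measure. The shares also depend on scaling. With TMM the median log2 change was -0.63 at 10 to 100 CPM and -0.72 above 100 CPM. Upper-quartile scaling moved the median of all tested features from 0.08 to 0.66. Shares by level, span or scaffold are given with TMM alone. The median log2 change of rising features went down with the level before, at 3.98 below 0.1 CPM, 1.72 at 1 to 10 CPM and 0.79 above 100 CPM. That of falling features stayed between -1.36 and -1.42 in the 3 classes above 1 CPM.

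**Figure D5:**
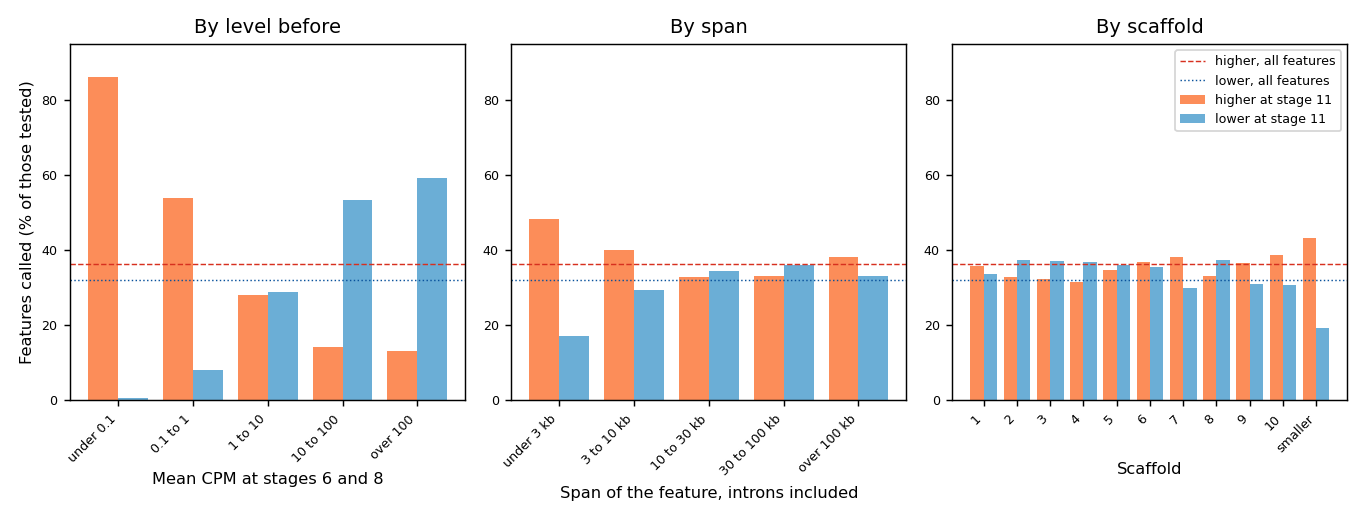
Bars give the percent of tested features called higher (orange) and lower (blue) at stage 11 over stages 6 and 8, by level before, by span and by scaffold, and the lines give the shares over all tested features, 36.3% higher and 32.1% lower. With TMM scaling, low features were mostly higher and abundant ones mostly lower. Features under 3 kb were more often higher than lower. The smaller scaffolds had a smaller share of lower features than any of the scaffolds 1 to 10.

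Switched-on features spanned less than the other classes described. The span, from start to end with introns included, had a median of 6489 bp in switched-on features, 17241 bp in boosted, 16240 bp in cleared and 22142.5 bp in reduced features, against 18119 bp in all tested. Of all features in the table, tested or not, switched-on ones made up 1.46% of 6923 under 3 kb, 1.94% of 6436 between 3 and 10 kb, 1.20% of 7986 between 10 and 30 kb, 0.610% of 5085 between 30 and 100 kb and 0 of 1406 above that. The share was thus highest between 3 and 10 kb and lower in each longer class. Under 3 kb 1730 features had enough counts for the test, and above 100 kb 1403. Of the tested features, 5.84% under 3 kb were switched on, 2.92% between 3 and 10 kb and 1.37% between 10 and 30 kb, but features silent before pass the filter only through the gastrula libraries, so the filter sets these shares in part. The relative limit gave 0.823% of the table under 3 kb, 1.54% between 3 and 10 kb, 0.889% between 10 and 30 kb, 0.511% between 30 and 100 kb and 0.284%, or 4 features, above that. Short tested features lay lower before, with a median of 0.311 CPM under 3 kb and 11.7 CPM at 10 to 30 kb. In RNA-seq a longer transcript collects more reads, so an equal CPM stands for fewer copies of a longer transcript.

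The share of tested features called in each direction varied with span, and differently by level. Features under 3 kb were higher in 48.4% and lower in 17.1%, those at 30 to 100 kb higher in 33.2% and lower in 36.0%, and those above 100 kb higher in 38.3% and lower in 33.2%. Rising features under 3 kb had a median log2 change of 4.44, and those above 100 kb 1.92. At a level of 10 to 100 CPM before, the share that was higher was 16.6% under 3 kb and 9.72% above 100 kb, and the share that was lower was 42.6% and 58.6%. Below 1 CPM before, the share that was higher was instead largest in the longest features. It was 66.0% under 3 kb, 67.4% between 3 and 10 kb and 64.0% between 10 and 30 kb. From 30 to 100 kb it was 71.0%, and above 100 kb 84.3%. Features this low pass the filter in part through the gastrula libraries, so the filter sets these shares in part. Their median before also differed, at 0.0715 CPM under 3 kb and 0.384 CPM above 100 kb. The extremes that follow were taken among called features with at least 10 CPM in the higher group. Among features that span over 100 kb, the largest riser was XLOC_026779, on scaffold_9 from 7365041 to 7486317, minus strand, with 223 and 235 CPM at gastrula, against 0.623, 0.645, 0.587 and 0.736 CPM before (log2 change 8.46, SE 0.17, adjusted p = 8.75e-08). The largest faller there was XLOC_016705, on scaffold_5 from 66311466 to 66411706, minus strand, with 6.89 and 6.31 CPM at gastrula, against 125 to 153 CPM before (log2 change -4.39, SE 0.19, adjusted p = 1.37e-06). Both changed less in WTTS. There XLOC_026779 was clearly present before, with a mean of 28.8 plain CPM against 222 at gastrula (log2 change with TMM 3.45, SE 0.24). XLOC_016705 averaged 74.3 plain CPM before and 10.0 at gastrula (log2 change with TMM -2.37, SE 0.28).

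The extremes of the other span classes changed more. Under 3 kb, XLOC_002093, on scaffold_1 from 41862686 to 41864109, minus strand, rose most above that level, with 8.05 and 12.3 CPM at gastrula and 5 reads in all 4 pre-gastrula libraries together. Also under 3 kb, XLOC_027264, on scaffold_9 from 67290541 to 67293096, minus strand, fell most above that level, with 0.383 and 0.369 CPM at gastrula, against 15.98 to 36.7 CPM before (log2 change -5.90, SE 0.45). Between 30 and 100 kb, XLOC_004507, on scaffold_10 from 33323171 to 33360924, minus strand, had 616 and 1106 CPM at gastrula, against 1.32 to 1.60 CPM before, a log2 change of 9.17 (SE 0.24). A feature of the opposite strand overlaps it, and no label states whether reads of overlapping partners were separated by strand. XLOC_010890, on scaffold_3 from 53788121 to 53828990, minus strand, fell most in that class, with 1.26 and 0.439 CPM at gastrula, against 29.1 to 46.3 CPM before (log2 change -5.60, SE 0.31).

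The 10 numbered large scaffolds were much alike in their shares higher and lower. The smaller ones differed from them in a way that varied with the level before. Between 31.5% (scaffold_4) and 38.6% (scaffold_10) of the tested features of a large scaffold were higher, and between 29.9% (scaffold_7) and 37.4% (scaffold_8) were lower. By class scaffold_10 stood out, with 17.0% of its 751 tested features boosted. On the other large scaffolds boosted features made up 9.85% (scaffold_5) to 12.0% (scaffold_6). Cleared features made up 1.86% (scaffold_10) to 3.66% (scaffold_3). On the smaller scaffolds 43.3% of 3365 were higher and 19.2% lower, against 34.8% higher and 34.8% lower of 16048 on scaffolds 1 to 10. Features of the smaller scaffolds had a median of 0.866 CPM before, against 9.66 CPM on scaffolds 1 to 10. At 10 to 100 CPM before, 38.1% of 662 were lower on the smaller scaffolds, against 55.5% of 5132, and above 100 CPM 46.6% of 253, against 60.2% of 2847. At 0.1 to 1 CPM the order was the other way, with 11.3% of 901 lower on the smaller scaffolds, against 6.91% of 3183, and 44.7% higher there, against 56.5%. Of the tested features, cleared ones made up 1.25% on the smaller scaffolds and 3.08% on scaffolds 1 to 10, and switched-on ones 2.67% and 1.64%. The filter sets the switched-on shares in part, since features silent before pass it only through the gastrula libraries. Of all features in the table, 90 of 5885 and 263 of 21951 were switched on. Among tested features under 0.1 CPM before, the shares were close, at 10.9% of 822 and 11.4% of 2306. These are shares of features, which are not replicates, and no test was made.

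Most switched-on features had no neighbour of the same class, but the class is small. It made up 1.82% of the tested features and 353 of the 27836 in the table. Of the 353, 42 (11.9%) stood next to another one, in 21 pairs of consecutive features with no run longer than 2. In 13 pairs both lay on one strand. Whether pairs were more frequent than the size of the class would give was not tested. The pair with the highest summed level was XLOC_024566 and XLOC_024567 on scaffold_8, minus strand, from 62319334 to 62328563 and from 62418035 to 62420798. The first had 16.6 and 19.7 CPM at gastrula, against 0.00993 to 0.0512 CPM before, and the second 24.4 and 17.5 CPM, against 0.0256 to 0.0596 CPM. On scaffold_851, plus strand, XLOC_025194 (4067 to 7866) had 23.7 and 16.3 CPM at gastrula, against 0.0199 to 0.0381 CPM before, and XLOC_025195 (9492 to 10293), which starts 1625 bp beyond it, had 13.2 and 8.33 CPM, against 0.00854 to 0.0413 CPM. On scaffold_6, plus strand, XLOC_018407 (103528492 to 103530656) had 3.12 and 5.96 CPM at gastrula, against 0 to 0.0992 CPM before (3 counts are 0.0256 CPM in the library with none), and XLOC_018408 (103538909 to 103541322) had 15.6 and 28.6 CPM, against 0.0298 to 0.0579 CPM. All 6 features were called higher, with adjusted p between 1.48e-07 and 2.91e-05. Of the 537 cleared features, 2.77% of those tested, 46 (8.57%) stood in 23 such pairs, among them the pair of XLOC_012824 and XLOC_014102. Consecutive features can be parts of one transcript or copies of one gene, and this was not tested.

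Stages 6 and 8 did not separate at the threshold. Each stage had only 2 libraries, 1 from each family, so features that were not called can still differ. With family as a block, edgeR called 0 of 19413 features between them (0% of those tested), with 1430 at an unadjusted p below 0.05, limma-voom called 0 and DESeq2 49, 34 higher and 15 lower at stage 8. The counts of calls against each stage alone were near each other. Against stage 8 alone 5836 features were higher and 5436 lower at gastrula, and against stage 6 alone 6009 were higher and 5359 lower.

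Few features were called as changing differently between the families. The test had 2 residual degrees of freedom and 1 gastrula library a family, so features that were not called can still differ. XLOC_024591 was not called at a difference of 2.61 (SE 0.55, adjusted p = 0.0812). XLOC_005482 was not called at -1.70 (SE 0.62, adjusted p = 0.284). The change differed at 236 of 19413 features (1.22%) by a test of the family-by-period term, 201 with a more positive change in family 2 (1.04%) and 35 with a more negative one (0.18%). Of the 201, 181 were lower in family 2 than in family 1 before gastrula, and 175 were higher in family 2 at gastrula. A more positive change in family 2 calls for a lower start or a higher end there, so these counts come in large part with the choice. The smallest p belonged to XLOC_023965, on scaffold_8 from 1491809 to 1539496, minus strand, which has an overlapping partner on the opposite strand. In family 2 it had 14.5 CPM at gastrula, against 0.377 and 0.339 CPM at stages 6 and 8, and in family 1 it had 7.21 CPM at gastrula, against 16.2 and 14.8 CPM. The log2 changes differed by 6.44 (SE 0.38, adjusted p = 0.0062). XLOC_014595, on scaffold_4 from 108140663 to 108182341, minus strand, went the other way, with 0.723 CPM at gastrula in family 2, against 8.00 and 9.81 CPM before, and 3.54 CPM in family 1, against 0.691 and 0.663 CPM (difference -6.00, SE 0.40, adjusted p = 0.0062). Neither was called in the comparison over both families. Among the 236 were 1 of the 353 switched-on features and none of the 537 cleared ones. Both classes ask for the same limit before gastrula in each family, so these low counts come in part with the choice. Each family is 1 pool a stage, so a difference between families and one between pools cannot be told apart.

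WTTS of the same pools gave fewer calls than RNA-seq, and few of them in the opposite direction. These libraries held 1536128 to 6276132 counts, and 12581 features could be tested, of which 2451 were higher at gastrula (19.5%) and 2332 lower (18.5%), together 38%. Over the 12453 features tested by both methods, 1799 were higher in both, which is 56.1% of those higher in RNA-seq and 74.1% of those higher in WTTS. Lower in both were 2150, or 39.8% of those lower in RNA-seq and 92.4% of those lower in WTTS. Called in opposite directions were 12 features higher and 117 lower in RNA-seq. No library was shared, but the pools were.

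By class, the WTTS calls were most frequent at the extremes. Of the 353 switched-on features 81 were deep enough to be tested in WTTS, and 69 of these were higher and 1 lower. Of 501 cleared features tested 411 were lower and 1 higher. Of 1860 boosted features tested 1121 were higher and 8 lower, and of 4857 reduced features 1734 were lower and 113 higher. The WTTS median log2 change was 5.05 over the 81 switched-on, -2.39 over the 501 cleared, 1.14 over the boosted and -0.65 over the reduced features, against 8.39, -3.57, 1.17 and -1.30 in RNA-seq over the same features, and a WTTS median of 0.01 over all features tested by both methods. The 81 passed a filter on WTTS counts mostly through the gastrula libraries and do not stand for all 353. XLOC_006007, the strongest faller in RNA-seq, averaged 2.42 CPM at gastrula and 2.85 CPM before in WTTS, at a log2 change of 0.03 (SE 0.69, adjusted p = 0.976). XLOC_000117 averaged 34.5 CPM at gastrula in WTTS and had no read in the 4 earlier libraries.

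Later WTTS libraries and adult RNA show what became of the classes, as values without a test. Cleared features took 0.652% and 0.680% of the WTTS counts at stage 11, 0.453% and 0.544% at stage 15 and 0.775% and 0.872% at stage 28, against 5.61% to 6.25% at stages 6 and 8. In the WTTS libraries of an adult female they took 5.35% and 5.67%, and in the 7 trial libraries of the adult pool 0.673% to 4.45%. In the RNA-seq library of an adult pool of both sexes, 98.5% of the cleared features had at least 1 CPM, against 80.75% of all tested features. Reduced and boosted features, which also started from 1 CPM or more, had 98.2% and 96.2%. Switched-on features took 0.155% and 0.213% of WTTS counts at stage 11, 0.509% and 0.570% at stage 15 and 0.845% and 0.822% at stage 28, against 0.0151% to 0.0242% before gastrula. This rise of the summed share was not that of the typical member. The median WTTS level of the class was 1.64, 1.59 and 1.02 CPM at stages 11, 15 and 28, and 214, 202 and 178 of the 353 had at least 1 CPM. In the adult RNA-seq library 31.2% of the switched-on features had at least 1 CPM.

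Single switched-on features took different courses later. XLOC_002669 averaged 43.8 CPM in WTTS at stage 11, 1.67 CPM at stage 15 and had no read at stage 28, which allows up to 0.340 CPM over the 2 libraries. XLOC_026188 averaged 23.2 CPM at stage 11, 89.7 CPM at stage 15 and 17.8 CPM at stage 28. XLOC_024566 averaged 5.07 CPM at stage 11, 9.18 CPM at stage 15 and 23.2 CPM at stage 28, and reached 169 CPM in the adult female. XLOC_012550, among the boosted features, averaged 832 CPM at stage 11, 711 CPM at stage 15 and 6.72 CPM at stage 28. Each WTTS stage is a mean of 2 families, and these values are plain CPM without further scaling.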

How the data were processed

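The values are counts per feature as the authors deposited them, whole and not normalized. Their aligner, counter, build and annotation, how strand was used, and whether RNA-seq libraries were selected for polyadenylated RNA were not given in the sources used here. Trizol was used to extract the RNA, per the labels' protocols.

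Counts were fitted with edgeR 4.0.16 in R 4.3.3 (TMM, filterByExpr, quasi-likelihood F-test), with family as a block and 3 residual degrees of freedom. The standard error (SE) was taken as the size of the log2 change over the root of F. Alternatives used DESeq2 1.42.0, limma 3.58.1, other scalings, references, limits and left-out libraries. The fit was also run on simulated data. No outcome of that run is given here, so nothing about the calls or the scaling is concluded from it. Tables were made in Python 3.11.15 (pandas 2.3.3, numpy 2.4.6; scipy 1.17.1).

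The labels give the same 2 families at each stage, and family differences over 9257 features correlated between stages at 0.530, 0.266 and 0.264. Between the methods they correlated at 0.329, 0.311 and 0.456 at stages 6, 8 and 11 over 7878 features. No pair of replicates matched within sampling noise (chi-square per degree of freedom 88.3 to 215). P-values rest on the spread between these pools that family and period leave over, which includes any difference between stages 6 and 8. Each family gave 1 pool a stage, so the spread between pools of the same family and stage was not measured.

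Named features were the 8 switched-on with the highest gastrula level, the 4 boosted with the largest change, the 8 cleared with the largest fall from at least 10 CPM, the 4 reduced with the largest loss, the 3 most abundant uncalled within 0.2 on the log2 scale, the extremes of each span class from at least 10 CPM, the 3 longest runs (all of 2 features, so by summed gastrula level) and the 2 smallest interaction p. The comparison, classes and rules were chosen with earlier results of these data known. Intervals and floors cover counting error only.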

Additional observations from a re-analysis of the deposited data

Results flagged for a closer look

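The change at gastrula differed between the families, by a test of the difference itself, at 236 features. The 2 with the smallest p were XLOC_023965, whose log2 change was more positive in family 2 by 6.44, and XLOC_014595, with a difference of -6.00. No named feature had a pre-gastrula library that stood apart from the other 3 by Dixon's test. These libraries are 2 stages of 2 families and not repeats, and with so few values the test can hardly reject. It looks for a single library that stands apart, so it cannot find a split between the families such as that of XLOC_023965. Nothing is concluded from it.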

How the results depend on the processing

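Leaving out 1 library gave 5971 to 6778 features higher and 5346 to 6255 lower at gastrula, 349 to 518 switched on and 520 to 580 cleared. Without the replicate block for family, 6706 were higher, 5822 lower, 353 switched on and 530 cleared, and in WTTS 2184 higher and 1978 lower. With upper-quartile scaling 3967 features were lower and 262 cleared, and the test against a log2 change of 1 left 3215 lower, since it asks for a larger fall. The limits set the sizes of the classes: 182 features were switched on with 0.05 and 1 CPM and 197 with 0.1 and 2 CPM, and 1621 were cleared at a log2 change of -2 and 159 at -4. DESeq2 called 49 features between stages 8 and 6, against 0 with edgeR, and the cause was not tested. Among features without a partner on the other strand, 34.5% were higher at 10 to 30 kb and 36.2% on scaffolds 1 to 10. Of 39 called named features 38 kept direction and call in all 17 alternatives, and XLOC_005482 lost its call in 7. Without stage 11 of family 1 the change of XLOC_014595 over both families was -3.64, and without that of family 2 it was 2.38; for XLOC_023965 the values were 5.32 and -1.11. A lone gastrula library is assumed there to vary like the others. With 2 gastrula libraries the spread at that stage rests on a single difference, and features under about 1 CPM rest on few reads in WTTS, where 3 counts are 0.478 to 1.95 CPM.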
